A study of Homo sapiens with 18 samples.

Results

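The 10 cadherin genes CDH1, CDH2, CDH3, CDH4, CDH5, CDH6, CDH10, CDH11, CDH13 and CDH15 were followed across MSC-hTERT cells, a human mesenchymal stem cell line immortalized with telomerase, among 61487 genes in the count table. They were chosen by name, together with CDH3, because CDH3 had already been seen switched on in 3 gene fusions in these same libraries. The levels of CDH3 in the 6 groups are therefore given as a description, with counting intervals but no p-value. The study compared 6 groups of 3 libraries, labelled pMSCV (a retroviral vector's name, read as the control), SRF (serum response factor, a transcription factor) and 4 gene fusions named for SRF and a partner: SRF-RELA, SRF-FOXO1, SRF-PDGFRB and SRF-ICA1L. The groups share the cell line and the culture medium, which per the labels contained FGF-2 and serum, and the line is a single immortalized model. The labels do not say whether the 3 libraries of a group came from separate cultures, so p-values measure the spread between libraries, which may be technical.

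Classical cadherins are calcium-dependent adhesion receptors that bind cadherins on the neighbouring cell and hold the actin cytoskeleton through catenins at the inner face of the membrane. Epithelia are known for CDH1 (E-cadherin) and, in basal layers, CDH3 (P-cadherin), whereas mesenchymal cells are known for CDH2 (N-cadherin) and CDH11. SRF is known for activating genes of the actin cytoskeleton by binding the CArG box in DNA.

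CDH3 lies on chromosome 16 at chr16:68645310-68733771 (GRCh38.p14, plus strand), and CDH1 follows it on the same strand at chr16:68737292-68835537, 3520 bases after CDH3 ends. CDH5, CDH11, CDH13 and CDH15 are on the same chromosome, which makes 6 of the 10 genes. RefSeq promoter sequences for GRCh38.p14 were matched for 3 of the 10 genes, CDH2, CDH4 and CDH10. Scaled to exon length, CDH2 made the largest share of the 10 genes in every library. By counts alone CDH11 or CDH13 was above CDH2 in some libraries, as CDH11 was in SRF-FOXO1 replicate 2 (9717 against 7320). CDH2 was picked on the scaled level, so the 250 bases before its main start are shown. They are chr18:28177131-28177380 on the minus strand, printed 5′ to 3′, with the ATTGG motif (the reverse complement of CCAAT) in capitals.
CDH2 promoter: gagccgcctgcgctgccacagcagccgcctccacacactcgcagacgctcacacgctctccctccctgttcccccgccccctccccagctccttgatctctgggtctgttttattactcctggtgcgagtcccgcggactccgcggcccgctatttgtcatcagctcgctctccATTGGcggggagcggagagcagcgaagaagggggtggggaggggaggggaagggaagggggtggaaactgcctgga
The CArG box, the E-box CANNTG, and CCAAT or ATTGG were searched for on both strands. This window holds 0 CArG boxes, 0 E-boxes and 1 CCAAT-type motif. Among the 35116 promoters of the table, windows of the same length held a CArG box in 1.16%, an E-box in 61.8% and a CCAAT-type motif in 32%. The 5 windows of the 3 matched genes held no CArG box.

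Total counts were 19362319 to 29806771 per library. A count of 0 allows up to 3 counts, which is 0.101 to 0.155 CPM, the library's counts scaled to a common total, at these depths. This floor and the intervals below cover counting error only, since reads were counted without molecular identifiers. SRF itself, which checks the labels, was at 57.3 to 64.4 CPM in pMSCV, 678 to 1122 CPM in the SRF libraries and 151 to 337 CPM in the fusions. FOXO1 was at 7.35 to 14.4 CPM in the libraries labelled SRF-FOXO1 and at 9.45 to 17.5 CPM in pMSCV, so a gain of FOXO1 reads does not mark that construct, and SRF-FOXO1 below means the libraries so labelled. The mesenchymal label was checked against its markers. THY1 was at 36.8 CPM or more, ENG at 116 CPM or more, and NT5E, VIM and COL1A1 higher still. Of the defining blood cell markers, PTPRC stayed at or under 0.277 CPM. CD34 was low but present in every library, from 13 counts in pMSCV replicate 1 to 86 in SRF replicate 3.

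CDH3, a type I classical cadherin, was near 0 in 3 groups and present in the other 3. It had 0 counts in the 3 pMSCV libraries, 1 count in the SRF libraries and 1 count in the SRF-PDGFRB libraries. In SRF-FOXO1 it was at 4.86, 20.4 and 10.1 CPM in replicates 1, 2 and 3. In SRF-ICA1L it was at 16.5, 38.1 and 30.6 CPM. In SRF-RELA it was at 16.97, 50.1 and 21.5 CPM. The lowest of these 9 libraries, SRF-FOXO1 replicate 1, holds 145 CDH3 counts, and no library of the other 3 groups holds more than 1. Means were 29.5 ± 17.96 CPM in SRF-RELA, 28.4 ± 10.996 CPM in SRF-ICA1L and 11.8 ± 7.9 CPM in SRF-FOXO1 (SD, n = 3). Against a floor of 3 counts per pMSCV library, these means were at least 261-fold, 251-fold and 104-fold higher. Over summed counts, the ratio to the single count of the SRF libraries was 942 for SRF-FOXO1 (95% interval 169 to 37241), 2359 for SRF-ICA1L (423 to 93231) and 2541 for SRF-RELA (456 to 100423). Fewer cells with the transcript and less transcript per cell cannot be told apart in these bulk libraries.

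**Figure D1:**
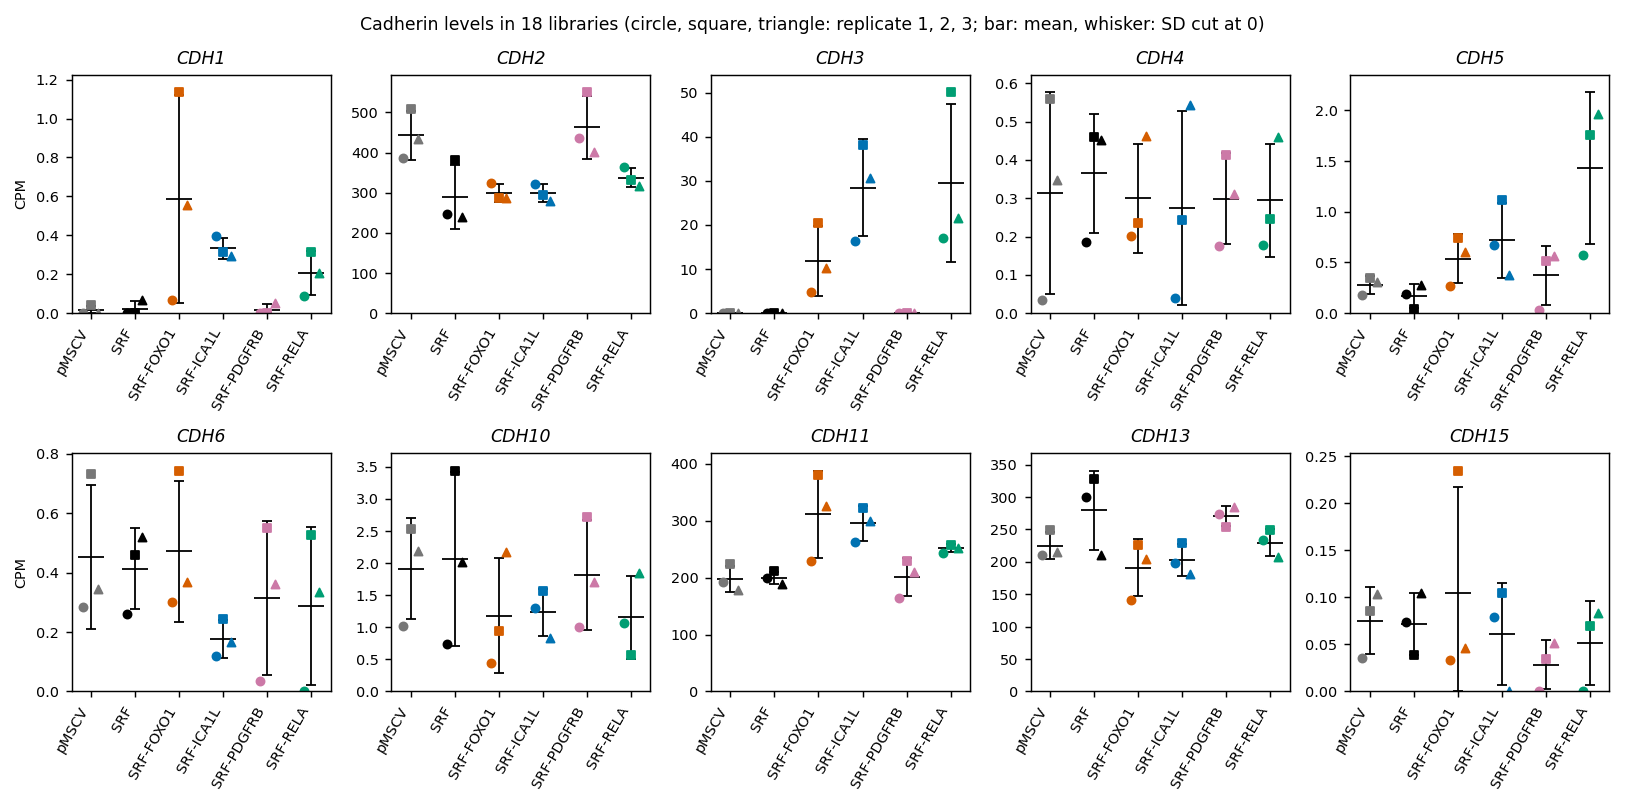
CPM of the 10 cadherin genes in the 18 libraries, 1 panel per gene on its own linear axis from 0, with a circle, square or triangle for replicate 1, 2 or 3, a bar for the group mean and a whisker for the SD. CDH3 is at 4.86 CPM or more in the 9 SRF-FOXO1, SRF-ICA1L and SRF-RELA libraries and at 0.0383 CPM or less in the other 9, while CDH2, CDH11 and CDH13 are above 140 CPM in all 18.

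Among the 3 fusions with CDH3, the libraries of the groups overlap. The fitted log2 difference in CDH3 was -1.28 for SRF-FOXO1 against SRF-ICA1L (SE 0.54), -1.28 against SRF-RELA (SE 0.54) and -0.01 for SRF-ICA1L against SRF-RELA (SE 0.53). The spread ran with the replicate number: number 2 was the highest and number 1 the lowest in 3 of 3 fusions, and SRF-FOXO1 was the lowest fusion within each of the 3 numbers. With the replicate number as a block, the same differences were -1.44 (SE 0.21), -1.35 (SE 0.20) and 0.083. No p-value is given for them, because the levels of CDH3 in these groups chose the gene. What a replicate number stands for is not given in the sources used here.

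CDH1, the E-cadherin gene next to CDH3, was present at a far lower level in the same 3 fusions. It was at 0.0671, 1.14 and 0.555 CPM in SRF-FOXO1, which is 2, 29 and 12 counts. In SRF-ICA1L it was at 0.396, 0.313 and 0.292 CPM, from 10, 9 and 7 counts. In SRF-RELA it was at 0.0888, 0.316 and 0.209 CPM, from 2, 9 and 5 counts. The pMSCV, SRF and SRF-PDGFRB libraries together held 4 counts, 1, 2 and 1 by group. SRF-FOXO1 replicate 1 and SRF-RELA replicate 1 hold 2 counts each, as many as SRF replicate 3, and the other 7 fusion libraries lie above every library without CDH3. CDH1 passed the count filter only through the fusion libraries: 3 of these 9 reached the level the filter asks of 3 libraries, and 0 of the other 9 did. A test against the groups without CDH3 would start from that choice, so no p-value is given. Over summed counts, the ratio to the single count of the pMSCV libraries was 44.9 for SRF-FOXO1 (95% interval 7.64 to 1815), 26.8 for SRF-ICA1L (4.40 to 1098) and 17.2 for SRF-RELA (2.67 to 719). The ratio to the 2 counts of the SRF libraries was 22.9 (5.96 to 195), 13.7 (3.42 to 119) and 8.74 (2.06 to 78.4) in the same order. These intervals pool the 3 libraries of a group and leave out the spread between them. They start from the same choice as well, so they are no test of a group difference.

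The balance of the pair differed between the fusions. CDH1 counts were 0.524%, 0.630% and 0.971% of CDH3 counts in SRF-RELA, 2.40%, 0.820% and 0.955% in SRF-ICA1L and 1.38%, 5.57% and 5.48% in SRF-FOXO1. The SRF-FOXO1 and SRF-RELA shares do not overlap, SRF-FOXO1 replicate 1 falls within the range of SRF-ICA1L, and the difference was not tested. Where CDH3 was highest, in SRF-RELA replicate 2, CDH1 was at 9 counts beside 1429 of CDH3.

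The antisense gene CDH3-AS1 overlaps the start of CDH3 on the other strand (chr16:68644248-68646201). It had 0 counts in the 9 pMSCV, SRF and SRF-PDGFRB libraries. Its levels were 0.400, 0.701 and 0.334 CPM in SRF-RELA, 0.356, 1.01 and 0.96 CPM in SRF-ICA1L and 0.168, 0.705 and 0.231 CPM in SRF-FOXO1. That is 1.40% to 3.45% of the CDH3 count. The kit marks strand, but the strand setting of the counting is not given in the sources used here, so reads of CDH3 and of its antisense gene cannot be told apart.

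**Figure D2:**
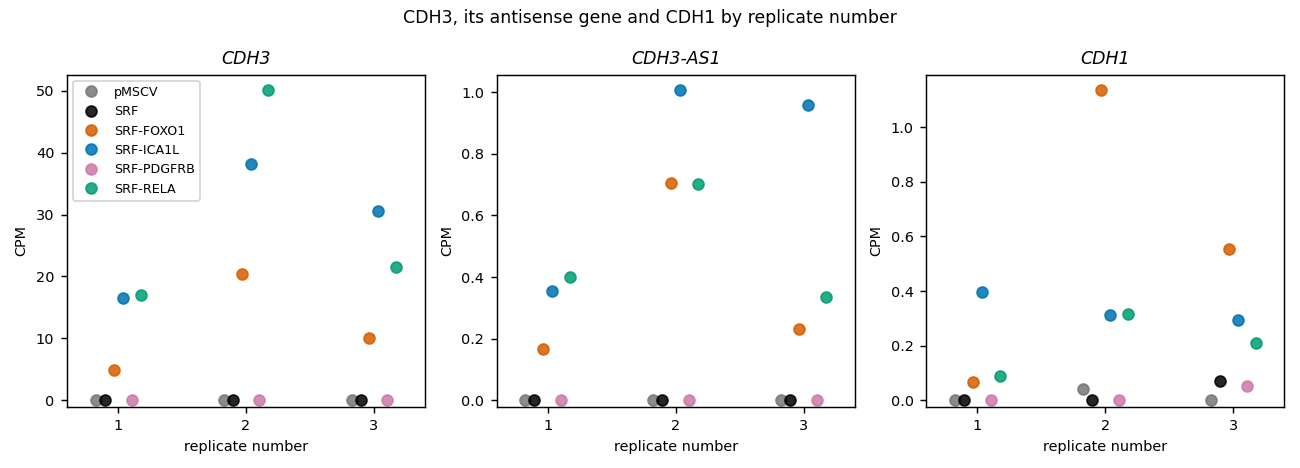
CPM of CDH3, CDH3-AS1 and CDH1 by replicate number, 1 point per library, coloured by group and shifted sideways within a number so that points do not hide each other. CDH3 is highest at number 2 in the 3 fusions that carry it, up to 50.1 CPM in SRF-RELA, while CDH1 reaches 1.14 CPM in SRF-FOXO1 replicate 2 and stays under 0.4 CPM in SRF-ICA1L and SRF-RELA.

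The other protein-coding neighbours had counts in all 18 libraries. On the side before CDH3, PRMT7 was at 21.1 to 31.0 CPM, SMPD3 at 0.103 to 0.417 CPM and ZFP90 at 10.5 to 31.4 CPM over the 18 libraries. On the side after CDH1, TANGO6 was at 11.6 to 23.5 CPM and HAS3 (a hyaluronan synthase) at 1.33 to 2.82 CPM. None of these 5 genes was called against pMSCV, SRF or SRF-PDGFRB in the edgeR fit without the block. In those comparisons 0.027% to 1.36% of all genes were called, so the absence of calls is near the background. With the block, ZFP90 was higher in SRF-ICA1L than in SRF-PDGFRB by 0.78 on the log2 scale (edgeR's adjusted p = 0.0410, 0.247 without the block), where 4.76% of all genes were called. TANGO6 was higher in SRF-FOXO1 than in SRF by 0.60 (edgeR's adjusted p = 0.0407, 0.0983 without the block). There 7.23% of all genes were called, and the numbers were not read as pairs.

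CDH2, CDH11 and CDH13 carried most of the cadherin signal. On CPM per kilobase of exon, the scale used to set different genes side by side, the 3 together made 92.6% to 99.7% of the sum of the 10 genes in each library. Exon length joined all annotated exons of a gene, 4950 bases for CDH2, 13381 for CDH11 and 11187 for CDH13. Shares and ratios between genes rest on these lengths. Unscaled, mean CPM in SRF-FOXO1 was higher for CDH11 than for CDH2 (311 against 299). Group means of CDH2 ran from 58.5 to 93.5 CPM per kilobase, those of CDH13 from 17.04 to 25.01, and those of CDH11 from 14.8 to 23.3. CDH3 ranked next where present, at 4.74 ± 2.88 CPM per kilobase in SRF-RELA, 4.55 ± 1.76 in SRF-ICA1L and 1.89 ± 1.27 in SRF-FOXO1 (SD, n = 3). Its share of the sum was 4.16% ± 2.38, 4.29% ± 1.59 and 1.78% ± 1.09 in these groups. CDH10 was at 0.316 to 0.564 CPM per kilobase by group, and CDH1, CDH4, CDH5, CDH6 and CDH15 were at 0.235 or less.

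CDH2, the N-cadherin of mesenchymal and neural cells, was at 387, 508 and 435 CPM in pMSCV and at 436, 551 and 402 CPM in SRF-PDGFRB. It was lower elsewhere: at 247, 382 and 239 CPM in SRF, at 324, 287 and 287 CPM in SRF-FOXO1, at 323, 295 and 280.1 CPM in SRF-ICA1L and at 364, 332 and 317 CPM in SRF-RELA. The pMSCV and SRF-PDGFRB libraries all lie above the libraries of the other 4 groups, by the margin between 387 CPM and 382 CPM at the closest. Within the 3 fusions with CDH3 number 1 was the highest library in 3 of 3 groups, whereas in the other 3 groups number 2 was the highest. Against pMSCV, CDH2 in SRF-FOXO1 had a log2 fold change of -0.49 (SE 0.17, edgeR's adjusted p = 0.197, 0.0348 with the block), and in SRF-ICA1L -0.45 (SE 0.17, edgeR's adjusted p = 0.322, 0.0589 with the block). In SRF the change was -0.58 (SE 0.17, edgeR's adjusted p = 0.707, 0.0750 with the block) and in SRF-RELA it was -0.34 (SE 0.17, edgeR's adjusted p = 1.00, 0.441 with the block). SRF-PDGFRB against SRF gave 0.65 (SE 0.17, edgeR's adjusted p = 0.169, 0.0159 with the block). CDH2 against SRF-PDGFRB was at -0.55 in SRF-FOXO1 (SE 0.17, edgeR's adjusted p = 0.163, 0.0277 with the block) and -0.52 in SRF-ICA1L (SE 0.17, edgeR's adjusted p = 0.205, 0.0345 with the block).

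CDH11, a type II cadherin of mesenchyme and bone-forming cells, was higher in the libraries with CDH3. It was at 192, 224 and 179 CPM in pMSCV, at 199, 211 and 189 CPM in SRF and at 165, 229.6 and 209.7 CPM in SRF-PDGFRB. It was at 229, 380.4 and 325 CPM in SRF-FOXO1, at 263, 323 and 300.0 CPM in SRF-ICA1L and at 244, 258 and 252 CPM in SRF-RELA. SRF-FOXO1 replicate 1 lies just under SRF-PDGFRB replicate 2, and the other 8 libraries with CDH3 lie above the 9 libraries without it. Number 2 was the highest library of CDH11 in 6 of 6 groups. Against pMSCV, the log2 fold change was 0.74 in SRF-FOXO1 (SE 0.18, edgeR's adjusted p = 0.0710, 0.00507 with the block) and 0.69 in SRF-ICA1L (SE 0.18, edgeR's adjusted p = 0.131, 0.00840 with the block). SRF-RELA gave 0.40 (SE 0.18, edgeR's adjusted p = 1.00, 0.290 with the block). Leaving out SRF-FOXO1 replicate 1 brought edgeR's adjusted p of SRF-FOXO1 to 0.00543, in a fit that called 2.29% of all genes. CDH11 in SRF-ICA1L against SRF was at 0.65 (SE 0.18, edgeR's adjusted p = 0.130, 0.0125 with the block). Against SRF-PDGFRB, CDH11 was at 0.72 in SRF-FOXO1 (SE 0.18, edgeR's adjusted p = 0.0807, 0.00741 with the block) and 0.67 in SRF-ICA1L (SE 0.18, edgeR's adjusted p = 0.112, 0.00884 with the block).

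The ratio of CDH2 to CDH11, on CPM per kilobase, shows both genes at once. It was 6.05 ± 0.56 in pMSCV and 6.27 ± 1.00 in SRF-PDGFRB, 3.89 ± 0.87 in SRF, 3.64 ± 0.35 in SRF-RELA, 2.77 ± 0.47 in SRF-ICA1L and 2.75 ± 0.95 in SRF-FOXO1 (SD, n = 3). The libraries of pMSCV, at 5.45 or more, do not overlap those of SRF and of the 3 fusions with CDH3, at 4.90 or less. These ratios were not tested, and their size rests on the exon lengths used.

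**Figure D3:**
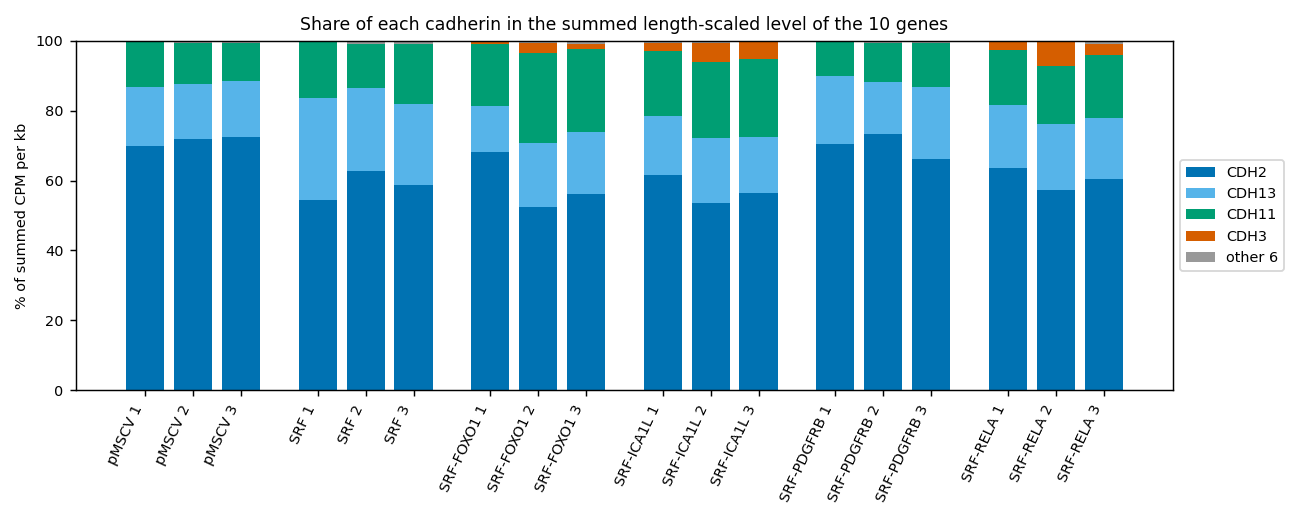
Share, in percent, of each cadherin in the summed CPM per kilobase of the 10 genes, 1 bar per library, with CDH1, CDH4, CDH5, CDH6, CDH10 and CDH15 joined as the other 6. CDH2 makes 70.0% to 72.4% of the sum in pMSCV and 53.6% to 61.6% in SRF-ICA1L, where CDH3 makes 2.50% to 5.50%.

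CDH13, a cadherin held by a lipid anchor and lacking the cytoplasmic tail, was at 210.2, 249.8 and 216 CPM in pMSCV and at 300.0, 328 and 211 CPM in SRF. Its levels were 274, 254 and 285 CPM in SRF-PDGFRB, then 234, 249 and 207 CPM in SRF-RELA, 198, 229.8 and 181 CPM in SRF-ICA1L and 141, 226 and 204 CPM in SRF-FOXO1. The SRF-PDGFRB libraries, at 254 CPM or more, lie above those of pMSCV, SRF-RELA, SRF-ICA1L and SRF-FOXO1, at 249.8 CPM or less. SRF replicate 3 lies well below the other SRF libraries. The largest difference from SRF was in SRF-FOXO1 (log2 fold change -0.50, SE 0.19, edgeR's adjusted p = 0.244), and CDH13 was called in none of the 15 comparisons with or without the block.

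CDH5, the cadherin of endothelial junctions, was low in all groups and highest in SRF-RELA. It was at 0.577, 1.75 and 1.96 CPM in SRF-RELA, 0.673, 1.11 and 0.376 CPM in SRF-ICA1L and 0.268, 0.744 and 0.601 CPM in SRF-FOXO1. It was at 0.177, 0.344 and 0.312 CPM in pMSCV, 0.185, 0.0383 and 0.278 CPM in SRF and 0.0348, 0.515 and 0.568 CPM in SRF-PDGFRB. The SRF-RELA libraries lie above those of pMSCV, SRF and SRF-PDGFRB, though replicate 1 lies within the range of the other fusions. CDH5, like CDH1, passed the count filter only through the fusions with CDH3, of which 7 libraries reached the level asked of 3, against 2 of the other 9. It is therefore given without a p-value, at a fitted log2 difference of 3.07 in SRF-RELA against SRF (SE 0.75) and 2.42 against pMSCV (SE 0.70). Of the 10 endothelial markers 8 passed the count filter. Their summed level was 93.3 to 122 CPM in pMSCV, 102 to 129 CPM in SRF, 101 to 158 CPM in SRF-PDGFRB, 144 to 344 CPM in SRF-RELA, 158 to 413 CPM in SRF-ICA1L and 156 to 374 CPM in SRF-FOXO1. Most of that sum was TEK, an angiopoietin receptor singled out after its values were seen, at 60.4 to 82.6 CPM in pMSCV and 105 to 306 CPM in SRF-RELA. CLDN5 and ERG were at or under 0.139 CPM in every library, and PECAM1 was at 11.4 to 18.1 CPM in SRF-RELA and 8.90 to 19.8 CPM in pMSCV. TIE1, an endothelial receptor kinase, rose in SRF-ICA1L against SRF by 1.52 on the log2 scale (SE 0.33, edgeR's adjusted p = 0.0459, lost in 5 of 6 fits that left out 1 library). Other markers of the list went both ways in that comparison. PECAM1 held 294, 281 and 124 counts in SRF-ICA1L and 399, 731 and 525 in SRF. KDR held 38, 29 and 25 against 59, 78 and 39, while TEK held 2936, 10958 and 6264 against 1950, 2176 and 2296. The part of these markers in the CDH5 values was not tested.

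The other 4 cadherins stayed low. CDH4 (R-cadherin) was at 0.0354 to 0.559 CPM, CDH6 (a cadherin of kidney and neural crest) at 0 to 0.744 CPM and CDH10 (a neural type II cadherin) at 0.436 to 3.44 CPM over the 18 libraries. Number 1 was the lowest library of CDH4 in 6 of 6 groups, and likewise of CDH6. CDH6 was at 0.119 to 0.243 CPM in SRF-ICA1L, under its 3 pMSCV libraries at 0.283 to 0.731 CPM, and the log2 fold change was -1.18 there (SE 0.84, edgeR's adjusted p = 0.680). CDH15 (M-cadherin of muscle precursors) had at most 6 counts in a library and was not tested. The myogenic regulators MYOD1 and MYOG held between 0 and 0.0391 CPM.

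Counted over the 15 comparisons, 0 of the 8 tested cadherins other than CDH3 were called by edgeR without the block. Against pMSCV the share of all tested genes called was 0.928% in SRF-FOXO1, 0.183% in SRF-RELA, 0.469% in SRF-ICA1L, 0.027% in SRF and 0.0324% in SRF-PDGFRB. Against SRF it was 1.36% in SRF-FOXO1, 0.388% in SRF-RELA, 0.782% in SRF-ICA1L and 0.146% in SRF-PDGFRB. Against SRF-PDGFRB it was 0.82% in SRF-ICA1L and 0.717% in SRF-FOXO1, and it was 0.162% in SRF-PDGFRB against SRF-RELA. Between the 3 fusions with CDH3 it was 0.027% in SRF-FOXO1 against SRF-ICA1L, 0.00539% in SRF-FOXO1 against SRF-RELA and 0.0108% in SRF-ICA1L against SRF-RELA. At these shares fewer than 1 call is the background for 8 genes, so the counts of 0 are near the background. These comparisons share their control libraries.

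Other tests were read on the 6 cadherins that pass the count filter on the 9 libraries without CDH3 as well, CDH2, CDH4, CDH6, CDH10, CDH11 and CDH13. At an unadjusted p under 0.05 in edgeR, CDH2 and CDH11 passed in SRF-FOXO1 and in SRF-ICA1L against pMSCV (15.1% and 10.8% of all genes), CDH11 in SRF-RELA (3.83%), CDH2 in SRF (5.38%) and 0 of the 6 in SRF-PDGFRB (2.1%). Against SRF it was CDH11 and CDH13 in SRF-FOXO1 (14.4%), CDH11 in SRF-ICA1L (11.8%), CDH2 in SRF-PDGFRB (12%) and 0 in SRF-RELA (9.54%). Against SRF-PDGFRB it was CDH2 and CDH11 in both SRF-FOXO1 (14.8%) and SRF-ICA1L (11.7%), and CDH2 in the comparison with SRF-RELA (3.87%). Between the 3 fusions with CDH3 it was 0 of 6 where 6.06% (SRF-FOXO1 against SRF-ICA1L), 10.4% (SRF-FOXO1 against SRF-RELA) and 3.06% (SRF-ICA1L against SRF-RELA) of genes passed. CDH2 and CDH11 were thus the cadherins that passed most often, in comparisons where up to 15.1% of all genes did.

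DESeq2 called CDH11 in SRF-FOXO1 and SRF-ICA1L against pMSCV (2.89% and 1.76% of all genes), against SRF (3.88% and 2.41%) and against SRF-PDGFRB (2.56% and 2.49%), and CDH2 in SRF-PDGFRB against SRF (1.28%). It called 0 of the 6 in SRF, SRF-PDGFRB and SRF-RELA against pMSCV (0.194%, 0.108% and 0.701%), in SRF-RELA against SRF (1.15%) and in SRF-PDGFRB against SRF-RELA (0.653%). Between the fusions with CDH3 it called 0 of the 6 as well, where 0.458% (SRF-FOXO1 against SRF-ICA1L), 0.108% (SRF-FOXO1 against SRF-RELA) and 0.0216% (SRF-ICA1L against SRF-RELA) of genes were called.

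With the replicate block, edgeR called 2 of the 6 in SRF-FOXO1 against pMSCV (CDH2 and CDH11) where 7.03% of all genes were called, and 1 in SRF-ICA1L (CDH11) where 4.66% were. Against SRF-PDGFRB it called CDH2 and CDH11 in both fusions, with 4.32% of genes called in SRF-FOXO1 and 4.76% in SRF-ICA1L. Against SRF it called CDH11 in SRF-ICA1L (4.73%), CDH2 in SRF-PDGFRB (2.34%) and 0 in SRF-RELA (1.73%). The call of CDH11 in SRF-FOXO1 against SRF (7.23%) rests on replicate numbers that were not read as pairs there. It called 0 of the 6 in SRF, SRF-PDGFRB and SRF-RELA against pMSCV (0.243%, 0.178% and 0.971%) and in SRF-PDGFRB against SRF-RELA (0.847%). Between the fusions with CDH3 it called 0 of the 6, where 0.911% (SRF-FOXO1 against SRF-ICA1L), 0.167% (SRF-FOXO1 against SRF-RELA) and 0.0162% (SRF-ICA1L against SRF-RELA) of genes were called.

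**Figure D4:**
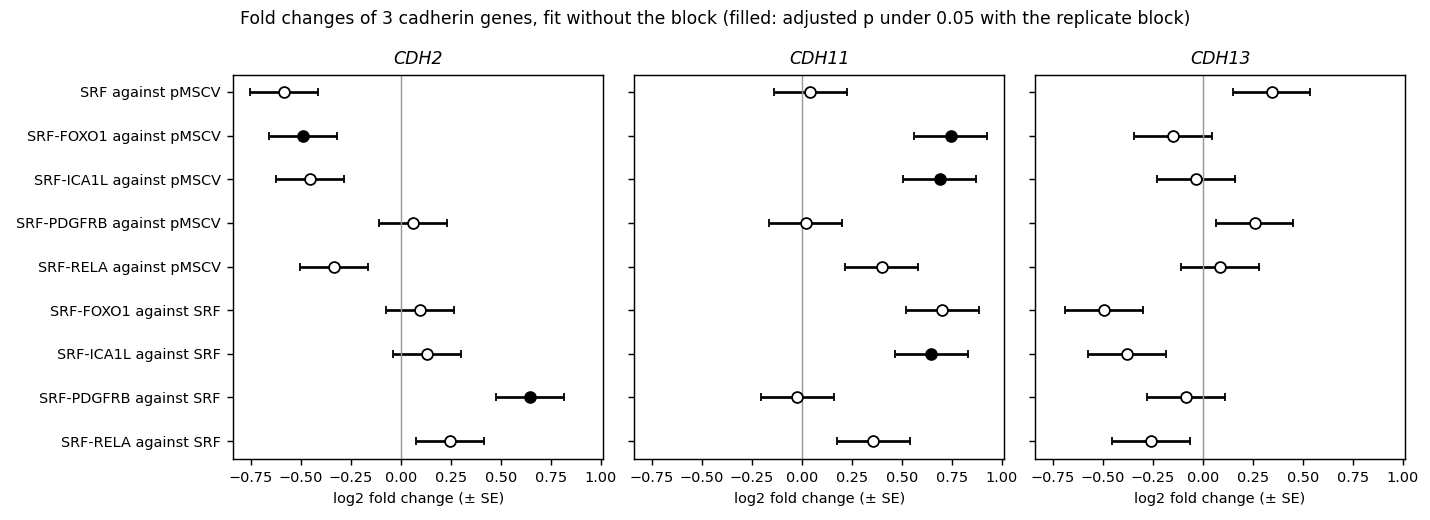
Log2 fold change with its SE from the edgeR fit without the block for CDH2, CDH11 and CDH13 in 9 comparisons, with a filled point where the adjusted p was under 0.05 with the replicate block (SRF-FOXO1 against SRF was not read with the block and is drawn unfilled). CDH11 is filled in SRF-FOXO1 and SRF-ICA1L against pMSCV, at 0.74 and 0.69, CDH2 is negative against pMSCV in SRF and in the 3 fusions with CDH3, and CDH13 has no filled point.

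Of the tested genes with a symbol, the 5 whose log2 CPM followed that of CDH3 most closely over the 18 libraries were NRXN3 (a neuronal adhesion receptor; Pearson r = 0.978), CDH3-AS1 (0.975), CMKLR1 (the chemerin receptor; 0.967), RPE65 (a retinoid isomerase; 0.964) and KRT17 (a basal keratin; 0.961). These points share libraries and depth, and the split of 9 libraries against 9 that defined the choice of CDH3 sets most of each value. Over the 9 libraries of the 3 fusions with CDH3 the same 5 values were 0.826, 0.884, 0.628, 0.710 and 0.768. NRXN3 was at 22.8, 107 and 32.0 CPM in SRF-RELA, 16.9, 49.4 and 30.7 CPM in SRF-ICA1L and 7.78, 103 and 20.5 CPM in SRF-FOXO1, against 0.362 CPM or less in the other 9 libraries. KRT17 was at 3.79 to 37.7 CPM in the 3 fusions and at 0.139 to 0.903 CPM elsewhere. In both genes number 2 was the highest library in the 3 fusions, as for CDH3. Among the other cadherins r with CDH3 was 0.845 for CDH1, 0.819 for CDH11 and 0.709 for CDH5, -0.332 for CDH13 and -0.373 for CDH2. Over the 9 libraries of the 3 fusions these values were 0.357, 0.3898, 0.679, 0.780 and 0.169 in the same order, so those of CDH13 and CDH2 changed sign.

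The proteins that link cadherins to actin were read from a list of 23 catenins and junction partners, of which 21 passed the count filter. The core catenins were present in every library at similar levels: CTNNB1 (beta-catenin) at 327 to 409 CPM, CTNNA1 (alpha-catenin) at 404 to 491 CPM and CTNND1 (p120-catenin) at 11.5 to 18.3 CPM. ARVCF, a p120-family catenin that binds the cadherin tail, differed more between groups. It was at 9.63, 12.1 and 5.64 CPM in pMSCV and at 20.2, 50.6 and 39.9 CPM in SRF-ICA1L, which do not overlap, and the log2 fold change was 2.14 (SE 0.39, edgeR's adjusted p = 0.0213). It was 1.70 in SRF-FOXO1 (SE 0.39, edgeR's adjusted p = 0.0538, 0.00559 with the block) and 1.52 in SRF-RELA (SE 0.39, edgeR's adjusted p = 0.229, 0.0306 with the block). Against SRF, ARVCF rose by 1.82 in SRF-FOXO1 (SE 0.39, edgeR's adjusted p = 0.0337) and by 2.26 in SRF-ICA1L (SE 0.40, edgeR's adjusted p = 0.0138), calls lost in 5 and 4 of 6 fits that left out 1 library, at up to 0.153 without SRF-FOXO1 replicate 2 and 0.0699 without SRF replicate 1. The call against pMSCV in SRF-ICA1L was lost in 5 of 6 fits that left out 1 library, with an adjusted p of up to 0.132 without pMSCV replicate 3.

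Over the whole list, 0 of 21 were called in SRF-FOXO1, 0 in SRF-RELA and 1 (ARVCF) in SRF-ICA1L against pMSCV without the block. The list's median log2 fold changes were 0.34, 0.12 and 0.22 in that order, and those of all tested genes were 0.01, -0.01 and -0.01. With the block 8, 1 and 5 were higher and 0 lower, in comparisons where 7.03%, 0.971% and 4.66% of all genes were called. The 21 include PKP2 and PKP1, which passed the count filter only through the fusions with CDH3. PKP1, named here for its counts, held 8, 173 and 10 in SRF-FOXO1 and at most 2 in each library without CDH3. These counts of higher genes and the list's medians are therefore not read as results. LIMA1, an actin-binding partner of alpha-catenin, rose in SRF-ICA1L against SRF-PDGFRB by 0.49 (SE 0.10, edgeR's adjusted p = 0.0223, lost in 5 of 6 fits that left out 1 library). Genes named after their values were seen are PKP2, at 0.470, 2.62 and 1.20 CPM in SRF-FOXO1 against 0.0708, 0.387 and 0.0346 CPM in pMSCV, PLEKHA7 and JUP (plakoglobin). PKP2 passed the count filter only through the fusions with CDH3. Its log2 fold change in SRF-FOXO1 against pMSCV was 3.28, given without a p-value for that reason. Those of PLEKHA7 and JUP there were 2.39 (edgeR's adjusted p = 0.124, 0.00363 with the block) and 0.95 (0.318, 0.0173 with the block).

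**Figure D5:**
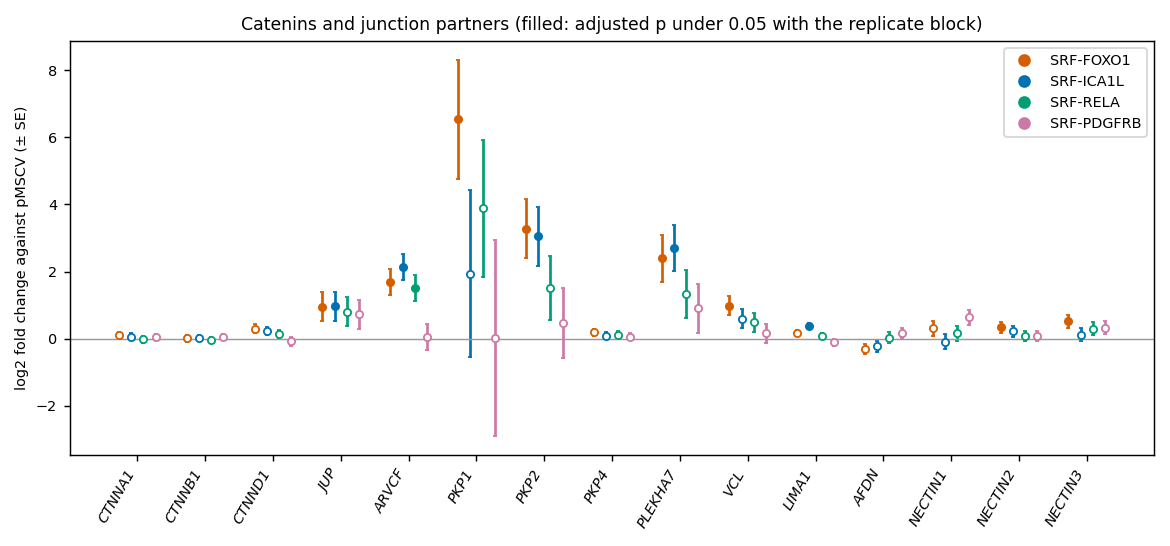
Log2 fold change against pMSCV with its SE from the edgeR fit without the block for 15 catenins and junction partners, in 4 colours for the 4 fusions, with a filled point where the adjusted p was under 0.05 with the replicate block. CTNNA1 and CTNNB1 sit near 0 in the 4 fusions, and ARVCF is filled at 1.52 in SRF-RELA, 2.14 in SRF-ICA1L and 1.70 in SRF-FOXO1. PKP1 and PKP2 passed the count filter only through the fusions with CDH3, so a filled point of either is not read as a result.

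Of 50 other genes of the cadherin superfamily 30 passed the filter, and against pMSCV 0 were called in each of the 5 constructs by edgeR without the block. With the block, 4 were called in SRF-FOXO1 against pMSCV, 2 in each direction (7.03% of all genes called), 1 was lower in SRF-ICA1L (4.66%) and 0 were called in the other 3. The 2 higher ones were PCDH1 and DSG3, the lower ones were CDH9 and DCHS1 in SRF-FOXO1 and PCDH15 in SRF-ICA1L, all named after their values were seen. PCDH1 held 9, 274 and 7 counts in SRF-FOXO1 and DSG3 held 3, 87 and 11, so replicate 2 carried most of both. In the 9 libraries without CDH3, PCDH1 held 1 to 7 counts and DSG3 0 to 11. PCDH1 and DSG3 passed the count filter through the fusions with CDH3, so their calls are not read as a result. Against SRF the block gave 2 higher and 4 lower in SRF-FOXO1 (7.23%), where the numbers were not read as pairs, 2 lower in SRF-ICA1L (4.73%), 1 higher and 2 lower in SRF-PDGFRB (2.34%) and 0 in SRF-RELA. Without the block, the single gene called in any of the 15 comparisons was CDHR2, a cadherin of microvilli. CDHR2 was lower in SRF-FOXO1 than in SRF-PDGFRB by 1.44 on the log2 scale (SE 0.29, edgeR's adjusted p = 0.0301, lost in 5 of 6 fits that left out 1 library). In SRF-ICA1L it was lower than in SRF-PDGFRB by 1.70 (SE 0.30, edgeR's adjusted p = 0.0123, lost in 2 of 6). Its levels were 1.18, 1.27 and 1.24 CPM in SRF-PDGFRB and 0.277 to 0.470 CPM in those 2 fusions. It held 34, 37 and 24 counts in SRF-PDGFRB, 19, 22 and 21 in pMSCV and 18, 12 and 13 in SRF. CDHR2 was not called against pMSCV or SRF without the block.

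Of 20 transcription factors known to regulate cadherin genes 14 passed the filter and 0 were called against pMSCV or SRF by edgeR without the block. SNAI1, a repressor of CDH1, was at 6.03 to 7.09 CPM in pMSCV and at 6.41 to 11.7 CPM in the 3 fusions with CDH3. ZEB1, another repressor of CDH1, was at 229 to 328 CPM in pMSCV and at 136 to 346 CPM in those fusions. With the block 2 factors were lower in SRF-FOXO1 and 1 in SRF-ICA1L against pMSCV, where 7.03% and 4.66% of all genes were called. They are TCF4 in SRF-FOXO1 (-0.80, edgeR's adjusted p = 0.199, 0.0212 with the block) and PRRX1, which was at -0.58 in SRF-FOXO1 (0.572, 0.0269 with the block) and -0.63 in SRF-ICA1L (0.682, 0.0221 with the block), both named after their values were seen.

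Epithelial markers were read beside CDH1 and CDH3. Of 18 markers 8 passed the filter, and their summed level was 63.2 to 107 CPM in pMSCV, 61.0 to 155 CPM in SRF, 62.8 to 126 CPM in SRF-PDGFRB, 86.8 to 170 CPM in SRF-RELA, 111 to 245 CPM in SRF-ICA1L and 106 to 247 CPM in SRF-FOXO1. Most of it was KRT18, at 41.8 to 191 CPM in the 3 fusions with CDH3, and KRT8, at 33.1 to 52.3 CPM there. EPCAM was at 0.537 CPM or less in every library and KRT5 had 0 counts in all 18. KRT14, the basal keratin, was at 0.537, 6.89 and 1.39 CPM in SRF-FOXO1 and at 0.799 CPM or less in each other library. It passed the count filter only through the fusions with CDH3. KRT14 is therefore given without a p-value, at a fitted log2 difference of 5.34 in SRF-FOXO1 against SRF (SE 1.05). The part of these markers in the CDH3 and CDH1 values was not tested.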

How the data were processed

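RNA-seq counts of 18 MSC-hTERT libraries (6 groups of 3) were analysed. The authors deposited raw counts per Ensembl gene, per the file headers. Per the submitters' processing notes, the tools were FastQC 0.11.8, Trimmomatic 0.39, HISAT2 2.12.1, featureCounts and Subread 2.0.3, with GRCh38. The annotation release and strand setting are not given in the sources used here.

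CPM used the total count. edgeR 4.0.16 (R 4.3.3, TMM, filterByExpr with a minimum count of 10, robust quasi-likelihood F tests, two-sided) was fitted to the 18 libraries, with 12 residual degrees of freedom. P-values were Benjamini-Hochberg adjusted over 18544 genes and called under 0.05. The SE is the absolute log2 fold change over the square root of F. The script was tested on simulated data. CPM per kilobase used GENCODE exon lengths, with all annotated exons of a gene merged. CDH3, whose levels chose it, is given without p-values, although a test of CDH3 among the fusions with CDH3 had been planned. CDH1, CDH5, KRT14 and PKP2 pass the filter only through those fusions and are given without p-values as well. Other genes named here, such as CDH3-AS1, PKP1, PCDH1 and DSG3, pass it in the same way and have no p-value. Log2 CPM for likeness to CDH3 used a prior count of 2.

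The members and lists were chosen with earlier results of these data known. Named genes are the members, SRF, up to 4 called genes per list, the 5 genes most like CDH3, its 3 neighbours on each side, and defining markers. Genes named otherwise are said to be so.

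Same-numbered libraries deviated together across genes. Of 45 such pairs 44 correlated over 0.1, the exception being in SRF-FOXO1 against SRF. The labels do not say what a number marks, so the pairing rests on this correlation. The replicate block was an alternative, with DESeq2 1.42.0, other scalings and filters, fits of 2 groups and fits without each library.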

Additional observations from a re-analysis of the deposited data

How the results depend on the processing

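The count of called cadherins other than CDH3, over the 8 tested and so including CDH1 and CDH5, which passed the filter only through the fusions, was 0 in all 15 comparisons and depended on the test in 8 of them. DESeq2 called 2 against pMSCV, 2 against SRF and 2 against SRF-PDGFRB in SRF-FOXO1 (2.89%, 3.88% and 2.56% of all genes), 1 against each of those groups in SRF-ICA1L (1.76%, 2.41% and 2.49%), and 1 against SRF in SRF-RELA (1.15%) and in SRF-PDGFRB (1.28%). Without a count filter 2 were called in SRF-FOXO1 against pMSCV and 1 each against SRF and SRF-PDGFRB, where 0.333%, 0.449% and 0.296% of 40522 genes were called. With the replicate block, the counts in SRF-FOXO1 were 3 against pMSCV, 2 against SRF and 3 against SRF-PDGFRB, those in SRF-ICA1L were 2, 2 and 3, and 1 was called against SRF in SRF-RELA and in SRF-PDGFRB. The block changed no other count of these cadherins. Calls of CDH1 and CDH5 start from that filter and are not read as results. The 6 other tested cadherins pass it without the fusions. With the block, SRF-FOXO1 against pMSCV, SRF and SRF-PDGFRB gave 2, 1 and 2 of these 6 (7.03%, 7.23% and 4.32% of all genes). SRF-ICA1L gave 1, 1 and 2 (4.66%, 4.73% and 4.76%). Against SRF, SRF-RELA gave 0 (1.73%) and SRF-PDGFRB 1 (2.34%). In SRF-FOXO1 against SRF, where the numbers were not read as pairs, it was CDH11 (log2 fold change 0.67, edgeR's adjusted p = 0.00692 with the block). When 1 library was left out, the count over the 8 ran from 0 to 2 in SRF-FOXO1 against pMSCV, SRF and SRF-PDGFRB. It stayed at 0 in the other 12 comparisons. The count of 2 (CDH1 and CDH11) was reached without SRF-FOXO1 replicate 1, where 2.29%, 3.31% and 1.54% of all genes were called. Of this pair only CDH11 passes the filter without the fusions.

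For CDH3 among the fusions, the block gave -1.44 for SRF-FOXO1 against SRF-ICA1L and -1.35 against SRF-RELA, values read without a test. SRF-ICA1L against SRF-RELA changed sign, to 0.083 with the block, 0.28 without SRF-ICA1L replicate 1 and 0.65 without SRF-RELA replicate 2. With 1 library left out, values ran from -2.01 to -0.89, from -2.02 to -0.62 and from -0.32 to 0.65. The cause was not tested. The alternatives of the named fold changes were read with KRT14 included and CDH1, CDH3 and CDH5 left out. Of these, 327 values kept their direction and call, 21 gained a call, 82 lost one and 0 changed sign. Those alternatives were chosen after seeing the data. By Spearman correlation GPR20 (rho 0.946) was the gene most like CDH3, ahead of CDH3-AS1 (0.942). Scaling by total count moved the median log2 fold change of all genes by up to -0.114 (SRF-ICA1L against SRF-PDGFRB). A minimum of 10 counts in every library leaves CDH1, CDH3, CDH4, CDH5 and CDH6 untested, so no value is given. Low counts limit CDH1, CDH4, CDH5, CDH6 and CDH15.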

Other observations

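THY1, a surface marker of mesenchymal stem cells, rose in SRF-ICA1L against pMSCV by 1.91 on the log2 scale (SE 0.29, edgeR's adjusted p = 0.00683, 0.0618 without pMSCV replicate 3). It was at 152, 239 and 201 CPM there and at 54.4 to 59.0 CPM in pMSCV. In SRF-FOXO1 THY1 rose by 1.35 (SE 0.29, edgeR's adjusted p = 0.0410), a call lost in 5 of 6 fits that left out 1 library, up to 0.205 without SRF-FOXO1 replicate 2.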
